A study of Canis lupus familiaris with 81 samples.

Results

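RTS0113072 and RTS0113778 are 2 of the 2010 probe identifiers counted in a series on canine appendicular osteosarcoma, and they were selected because each has the highest count of all probes in a few tumour regions. In most tumour regions that place belongs to another probe, RTS0112268. The files give identifiers without gene names, so the genes behind both probes are not named here, and no probe sequence was used. The counts came from the GeoMx Digital Spatial Profiler with the Canine Cancer Atlas panel. The data comprised 68 tumour regions from 24 numbered tumours, 4 regions each of kidney, spleen and liver, and 1 no-template control. The regions lay on 2 tissue microarrays, here array 1 and array 2. Of the tumours, 10 contributed 2 regions to each array and 14 contributed 1. For treatment the labels name a canine trials network of the National Cancer Institute, and they give no age, sex, treatment arm or outcome per tumour. They also give neither the animals behind the control regions nor the way regions were chosen, so the control regions may share an animal.

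Osteosarcoma is a malignant bone tumour whose cells lay down bone matrix, and in dogs it arises mostly in the long bones of the limbs. Tumours differ in how much matrix, cartilage-like and fibrous tissue they contain, and 1 tumour can differ from place to place. In the GeoMx assay, probes with a DNA tag bind RNA in a tissue section, the tags of a chosen region are released by light, and sequencing counts them. A region holds many cells, so fewer cells of a type and less RNA per cell cannot be told apart.

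Total counts were 17711 to 1069118 in the tumour regions, with a median of 211967, and 92126 to 396058 in the control regions. A share below is the percent of a region's total count taken by 1 probe, and a tumour's share is the mean over its regions. A level is log2 CPM (counts scaled to a common library size) after TMM scaling, which corrects for differences in composition between libraries. The no-template control held 0 counts of either probe among 74 counts, which allows a share of up to 4.05% if a count of 0 is taken to allow 3 counts. The same control held 17 counts of RTS0112268, 17 of RTS0112269 and 4 of RTS0113569. All other intervals on shares are 95% Wilson intervals and cover counting error only.

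RTS0113072 had the highest count in 3 regions, all of tumour 1002, and RTS0113778 had it in 2 regions, both of tumour 706. RTS0112268 led 60 regions of 21 tumours, and the remaining 3 regions, from 2 tumours, were led by RTS0112269. These ranks and counts chose both probes and are given as a description without a test.

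In tumour 1002, RTS0113072 held 14086 counts or 4.15% (4.08% to 4.22%) of 1 region on array 1, against 7574 counts of the second probe, RTS0112269. On array 2 it held 14465 counts or 4.07% (4.00% to 4.13%) of 1 region, where RTS0113569 was second with 8070 counts. In the other region on array 2 it held 20792 counts or 4.33% (4.27% to 4.38%), just ahead of RTS0112269 with 19939 counts. That region lies just inside the selection, with a ratio of 1.04 between first and second probe. The fourth region of the tumour lies just outside it, since RTS0113072 there held 7987 counts or 3.39% (3.32% to 3.46%) and RTS0112269 led with 10024. RTS0112268 held only 1.84% to 3.01% of the counts in the 4 regions of this tumour.

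In tumour 706, RTS0113778 held 12822 counts or 3.60% of the region on array 1, against 12058 counts of RTS0112962 in second place. It held 8419 counts or 4.18% of the region on array 2, where RTS0112962 had 6734. The closest region outside the selection was that of tumour 601 on array 2, where RTS0113778 was second with 2014 counts against 3405 of RTS0112268, a ratio of 0.591. Both leading regions came from tumour 706, the tumour with the lowest RTS0112268 share of the 24, at 1.91%.

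The first place in a few regions was the upper end of a wide range. RTS0113072 was among the 10 highest probes in 24 regions of 11 tumours, and RTS0113778 in 18 regions of 9 tumours. Over the 24 tumours the share of RTS0113072 was 0.0172% in tumour 404 at the lowest, 0.338% at the median and 3.98% in tumour 1002 at the highest, a range of 231-fold. The share of RTS0113778 was 0.00937% in tumour 901 at the lowest, 0.0808% at the median and 3.89% in tumour 706 at the highest, a range of 415-fold. The mean share was 0.820% ± 1.05 for RTS0113072 and 0.684% ± 1.12 for RTS0113778 (SD, n = 24 tumours), so in both probes the SD exceeded the mean. The shares were unevenly spread, since the 3 highest tumours held 47.3% of the summed share of RTS0113072 and 60.98% of that of RTS0113778.

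RTS0113072 reached 1% of the counts in 7 tumours. After tumour 1002 these were tumour 502 at 3.17%, tumour 309 at 2.16%, tumour 701 at 1.62%, tumour 2203 at 1.55%, tumour 601 at 1.45% and tumour 1405 at 1.23%. RTS0113778 reached 1% in 5 tumours, which after tumour 706 were tumour 701 at 3.39%, tumour 601 at 2.73%, tumour 2204 at 1.45% and tumour 1405 at 1.195%. Tumours 601, 701 and 1405 are on both lists, and 9 tumours are on at least 1 of them. The tumours at the top of each list were otherwise different. Tumour 706, highest for RTS0113778, had an RTS0113072 share of 0.0351%, and tumour 309, high for RTS0113072 at 2.16%, had an RTS0113778 share of 0.0171%. Across the 24 tumours the shares of both probes had a Pearson r of 0.118 and a Spearman rho of 0.350.

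**Figure D1:**
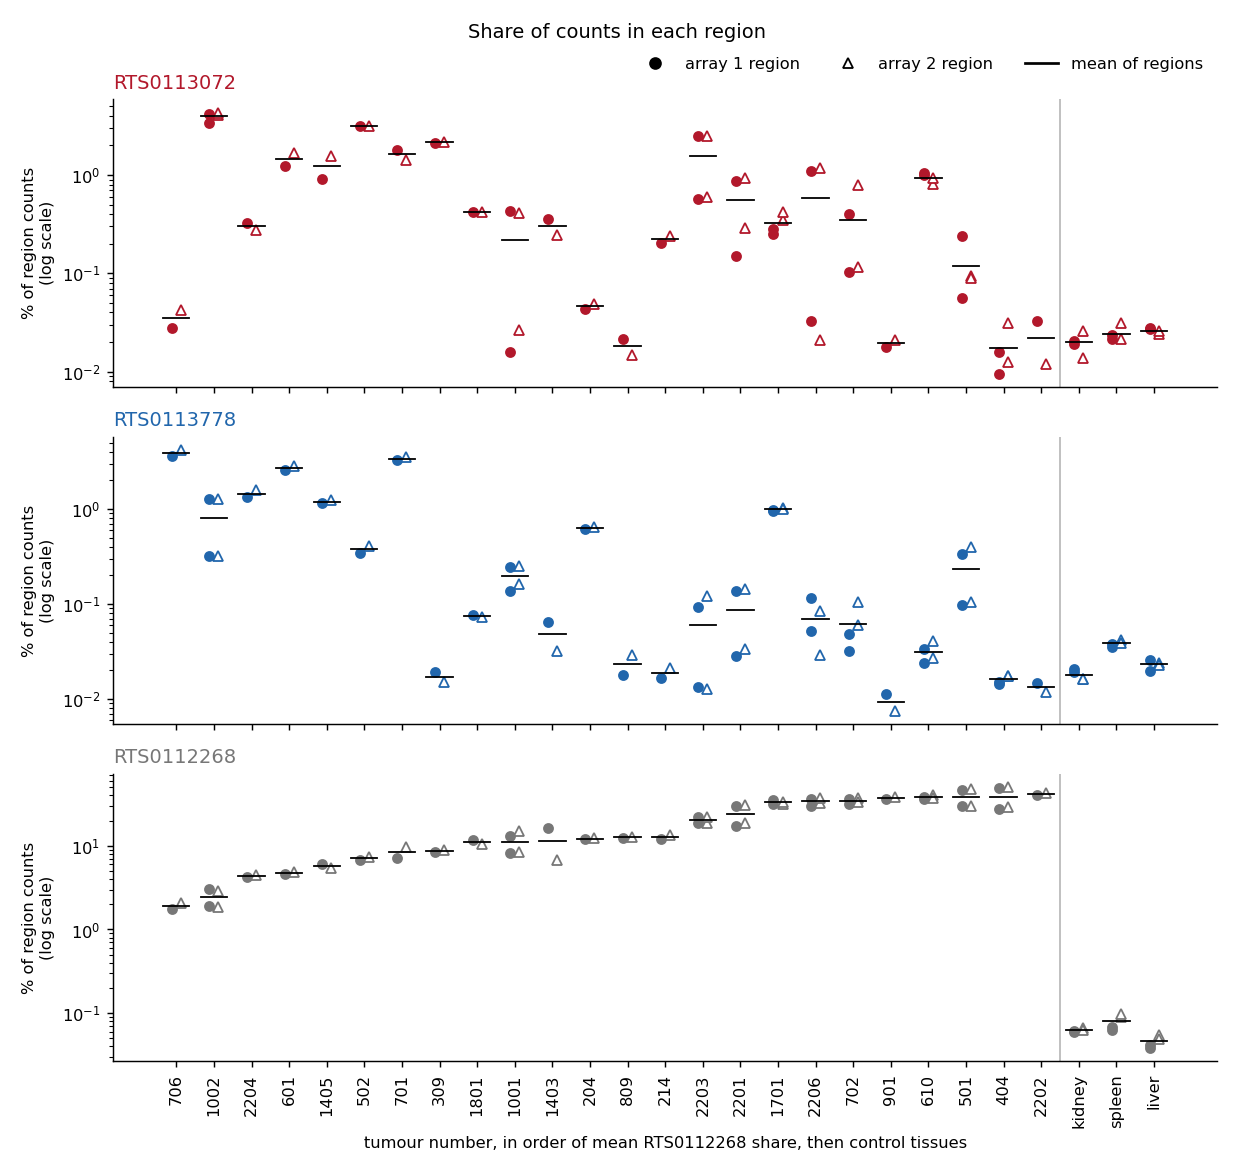
Share of a region's counts in percent, on log axes, for RTS0113072, RTS0113778 and RTS0112268. Each point is 1 region (filled circle for array 1, open triangle for array 2) and each line the mean of a tumour or tissue, with tumours ordered by their RTS0112268 share. Shares of RTS0113072 run from 0.00956% to 4.33% and those of RTS0113778 from 0.00748% to 4.18%, and the low tumours lie at the height of the control tissues.

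On the log2 CPM scale, RTS0113072 ran from 7.20 in tumour 809 to 14.91 in tumour 502, and RTS0113778 from 6.85 in tumour 214 to 14.80 in tumour 706. These ranges of 209-fold and 247-fold were the third and the second widest of the 2010 probes, whose median range was 1.99 log2 units. The range was not independent of the selection, which picked probes that are high somewhere.

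Both probes held small shares in all 3 control tissues. The RTS0113072 share was 0.0192%, 0.0205%, 0.0257% and 0.0139% in the kidney regions, with a mean of 0.0198% ± 0.00487. It was 0.0234%, 0.0215%, 0.0312% and 0.0215% in spleen, with a mean of 0.0244% ± 0.0046, and 0.0276%, 0.0272%, 0.0239% and 0.0258% in liver, with a mean of 0.0261% ± 0.00169 (SD, n = 4 regions each). The ranges of the 3 tissues overlapped. The RTS0113778 share was 0.0192%, 0.0205%, 0.0162% and 0.0162% in kidney, with a mean of 0.0180% ± 0.00216. It was 0.0380%, 0.0352%, 0.0421% and 0.0393% in spleen, with a mean of 0.0387% ± 0.00287, and 0.0257%, 0.0199%, 0.0239% and 0.0230% in liver, with a mean of 0.0231% ± 0.0024. For RTS0113778 every spleen region lay above every kidney and liver region.

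The tissues were compared with the quasi-likelihood test of edgeR, in which 44.3% of all probes were called between spleen and kidney, 45.6% between liver and kidney and 39.3% between liver and spleen. RTS0113778 was higher in spleen than in kidney with a log2 difference of 0.79 ± 0.13 (standard error, SE; edgeR adjusted p = 1.01e-05). It was lower in liver than in spleen, at -0.55 ± 0.14 (edgeR adjusted p = 0.00187), and that call was lost under upper quartile scaling, at -0.27 with adjusted p = 0.116. Between liver and kidney its log2 fold change was 0.24 ± 0.15 (edgeR adjusted p = 0.232), and it passed under upper quartile scaling at 0.55 with adjusted p = 0.00302.

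RTS0113072 passed in none of these tissue comparisons. Its edgeR log2 fold change was -0.03 ± 0.16 between spleen and kidney (adjusted p = 0.924), 0.32 ± 0.17 between liver and kidney (adjusted p = 0.122) and 0.35 ± 0.17 between liver and spleen (adjusted p = 0.106). Under upper quartile scaling both liver differences rose to 0.63 and passed, with edgeR adjusted p = 0.00273 and 0.00344, while the median of all probes moved from 0.10 to 0.41 and from 0.02 to 0.30. Without the third kidney region its liver to kidney difference was 0.45 with edgeR adjusted p = 0.0355. With 39.3% to 45.6% of probes called, a call here does not set a probe apart, and p-values over regions that may share an animal are too small.

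The counts behind these shares were 22 to 108. RTS0113072 lay low in the panel in all 3 tissues, where its levels of 6.85 ± 0.34 (kidney), 6.94 ± 0.23 (spleen) and 7.21 ± 0.20 (liver) log2 CPM were within 0.4 of the mean of the 502 probes lowest in these tissues, which was 6.57, 6.64 and 6.84. The RTS0113778 levels were 6.75 ± 0.13 (kidney), 7.58 ± 0.12 (spleen) and 7.04 ± 0.09 (liver). In spleen its level was further from the mean of the 502 lowest probes. Its rank there was 544 to 687 of the 2010 probes, above the median probe. The RTS0113778 rank was 1258 to 1537 in kidney and 988 to 1393 in liver. The probes that measure non-specific binding were not used here, so whether the control tissues hold RNA of either gene was not tested.

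The tumour mean of RTS0113072 exceeded kidney by 4.53, spleen by 4.45 and liver by 4.17 log2 units, and that of RTS0113778 by 3.79, 2.96 and 3.50. These differences follow from the selection on high tumour counts and were not tested. In TMM-scaled levels, RTS0113072 lay above every control region in 66 of 68 tumour regions and in all regions of 22 tumours. RTS0113778 did so in 57 of 68 regions and in all regions of 18 tumours, and in tumours 214, 2202, 309 and 901 no region did. Scaling by library size alone lowered these numbers to 55 and 43 regions and to 17 and 12 tumours. In the tumours low for a probe its counts were few, with a lowest count of 5 for either probe, so that 9 regions held fewer than 30 counts of RTS0113072 and 16 held fewer than 30 of RTS0113778.

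Levels within a tumour were then compared to see whether the differences lie between tumours or between places in 1 tumour. Differences between tumours made up 75.1% of the RTS0113072 variance among 68 regions and 90.1% of that of RTS0113778, against a median probe of 35.9%. In order of this percentage RTS0113778 was number 34 of 2010 probes and RTS0113072 number 291. With library size alone RTS0113778 was at 91.3% and RTS0113072 at 76.6%, but the median probe rose to 65.7%, so RTS0113072, then number 421, lay much less above it. Among the 10 tumours with 2 regions per array, and on array 1 alone, the figures were 42.7% and 69.9%, against a median of 39.2%. On array 2 alone they were 41.7% and 63.6%, against 28.8%. In those tumours RTS0113072 thus varied about as much between 2 regions of an array as between tumours.

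RTS0113072 differed more between 2 regions of the same tumour on the same array than any other probe, by the median over 20 such pairs. This median difference was 1.99 log2 units or 3.96-fold, against 0.39 log2 units for the median probe, and 13 of the 20 pairs differed by 2-fold or more. RTS0113778 had a median difference of 0.97 log2 units or 1.97-fold, number 19 of the 2010 probes, and 10 of the 20 pairs differed by 2-fold or more. In the 14 tumours with 1 region per array, the 2 regions differed by a median of 0.32 log2 units in RTS0113072 and 0.29 in RTS0113778, against 0.29 for the median probe. The selection, which favours probes with a wide range, is not independent of these sizes, and they were not tested.

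The largest difference was in tumour 2206. There RTS0113072 held 1.11% of 1 region on array 1 (791 counts) and 0.0329% of the other (82 counts), and 1.19% (211 counts) and 0.0212% (11 counts) of the regions on array 2. The level differed by 41.6-fold on array 2. In tumour 1001 the shares were 0.431% and 0.0159% on array 1 and 0.409% and 0.0264% on array 2, so that in each of these tumours 1 region per array was high and 1 was low. By level, the low regions of tumour 2206, at 9.00 and 8.42 log2 CPM, still lay above every control region, the highest of which was at 7.41, and of those of tumour 1001, at 7.20 and 7.95, only the second did. By share, the low region of tumour 2206 on array 2 and both low regions of tumour 1001 lay within the control range of 0.0139% to 0.0312%. Tumour 2203 had 2.50% and 0.565% on array 1 and 2.52% and 0.602% on array 2, with neither region low. Tumour 610 was the most even of the 10 by level, with 0.9936% and 1.04% on array 1 and 0.810% and 0.925% on array 2.

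For RTS0113778 the largest difference was in tumour 2203, with 0.0925% and 0.0134% on array 1 and 0.121% and 0.0126% on array 2. In tumour 1002 the shares were 1.29% and 0.323% on array 1 and 1.27% and 0.316% on array 2, while RTS0113072 in that tumour stayed between 3.39% and 4.33%. In tumour 1701 all 4 regions held 0.961% to 1.03%. A tumour could thus be uneven for 1 of the probes and even for the other.

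The size of the difference between 2 regions was then compared across the arrays. The selection did not use this relation, but it used counts of the same regions and favours probes with a wide range. The p-values below, and the place of both probes among all probes, are therefore not independent of the selection. For RTS0113778 the absolute log2 differences of the 10 tumours on array 1 and array 2 had a Pearson r of 0.961 (two-sided permutation p = 0.00026, adjusted over all probes 0.0147) and a Spearman rho of 0.721 (permutation p = 0.0228, adjusted 0.282). For RTS0113072 r was 0.882 (permutation p = 0.00098, adjusted 0.0298) and rho was 0.770 (permutation p = 0.0125, adjusted 0.218). At the adjusted threshold of 0.05 on r, 4.88% of all probes passed, and the median r was 0.251. Neither probe passed on rho after adjustment with TMM scaling, while with library size alone rho for RTS0113778 was 0.976 and passed, with an adjusted permutation p of 0.01. Without the 2 tumours farthest from the median, r was 0.922 for RTS0113778 (exact permutation p = 0.0101, n = 8) and 0.692 for RTS0113072 (exact permutation p = 0.0675, n = 8), while rho fell to 0.452 and 0.571. The relations therefore rest in part on these tumours, which were 2201 and 2203 for RTS0113778 and 1001 and 2206 for RTS0113072.

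When the regions of a tumour were matched across arrays by the other probes, the higher region for RTS0113778 on array 1 was also the higher on array 2 in 10 of 10 tumours, and for RTS0113072 in 8 of 10. The exceptions for RTS0113072 were tumours 1002 and 1701, whose regions differed little. Some agreements also rest on small differences. Tumour 610 had 0.0084 and 0.0138 log2 units for RTS0113072, and tumour 1701 had -0.128 and -0.016 for RTS0113778, on array 1 and array 2. The median of the other probes was 6 of 10, and 2.74% of them reached 10 of 10 and 24.1% reached 8 or more. The matching was made on those other probes, so their own counts are not independent of it. Averaged over the 2 matches of a tumour, regions of the 2 arrays differed by a median of 0.47 log2 units in RTS0113072 and 0.27 in RTS0113778. The medians over the 20 single pairs of regions of an array were larger, at 1.99 and 0.97. This order did not hold in every tumour. In tumour 702, RTS0113778 differed by 1.12 between matched regions, against 0.78 and 1.02 between regions of array 1 and array 2. The other probes were not measured in this way. The labels do not say whether regions on the 2 arrays come from the same piece of tissue.

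**Figure D2:**
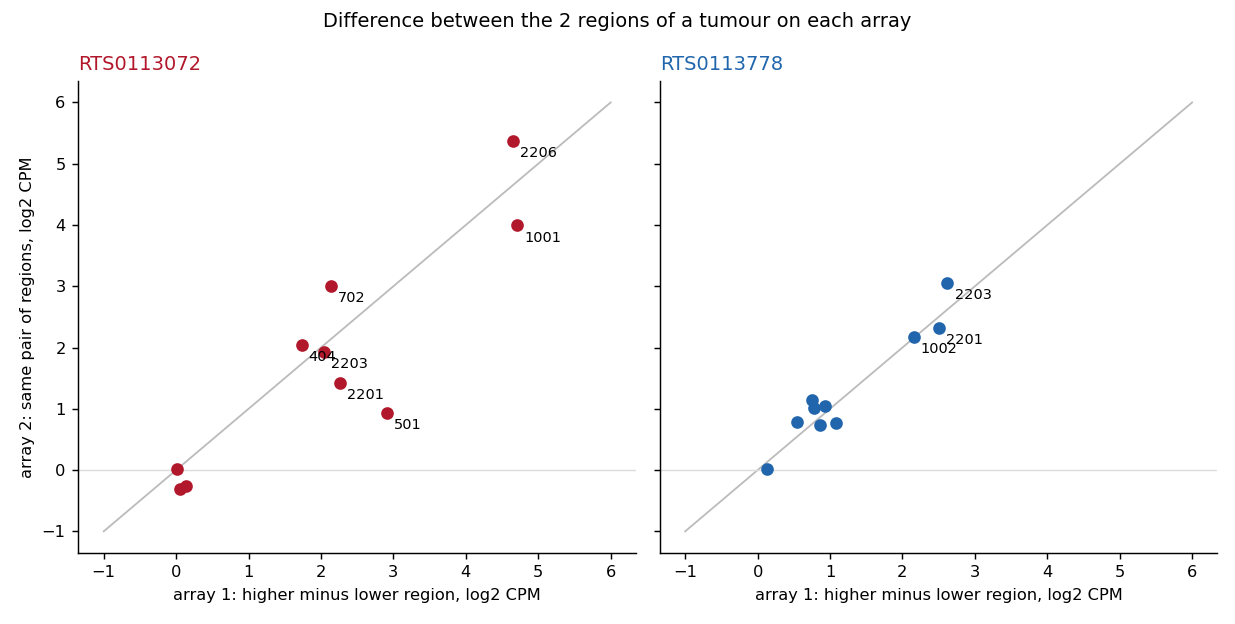
Difference in log2 CPM between the 2 regions of a tumour on array 1 (horizontal, higher minus lower region) and between the matched regions on array 2 (vertical, same order), 1 point for each of 10 tumours. The grey diagonal marks equal differences, and tumours with a difference above 1.5 are numbered. All 10 points of RTS0113778 and 8 of 10 of RTS0113072 lie above 0, and tumours 2206 and 1001 stand far out for RTS0113072.

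Because both arrays hold the same tumours, the levels on array 2 were compared with those on array 1, with the tumour as a block. RTS0113778 was higher on array 2 with a log2 fold change of 0.29 ± 0.05 (edgeR adjusted p = 0.000218), and its level was higher there in 18 of 24 tumours. Averaged over the 24 tumours, the difference in its level was smaller, at 0.14 ± 0.42 log2 units (SD). RTS0113072 did not pass, at 0.22 ± 0.08 (edgeR adjusted p = 0.0588), with a higher level in 16 of 24 tumours. Leaving out tumour 1403, 501 or 701 brought RTS0113072 past the threshold, with edgeR adjusted p = 0.0221, 0.00625 and 0.0394. Of 2008 probes tested, 8.76% were called, 154 higher and 22 lower on array 2, and the split turned to 37 higher and 54 lower under upper quartile scaling and to 19 and 76 by library size alone.

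The share of counts gave a smaller contrast. The mean share of RTS0113778 was 0.651% on array 1 and 0.717% on array 2, a difference of 0.0662 ± 0.138 percentage points (SD, n = 24), higher on array 2 in 17 tumours. Its two-sided sign-flip permutation p was 0.00265, or 0.0695 after adjustment over all probes, and so it did not pass. On log2 shares its difference was 0.070 ± 0.407 (SD, n = 24), with a permutation p of 0.409 (adjusted 0.740). In the 10 tumours with 2 regions on each array, the permutation p for its share was 0.121 (adjusted 0.489). For RTS0113072 the means were 0.790% and 0.849%, a difference of 0.0590 ± 0.209 percentage points, higher in 16 tumours (permutation p = 0.183, adjusted 0.563). By this test 2.29% of all probes passed. Array position and any difference in handling of the 2 slides cannot be told apart.

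**Figure D3:**
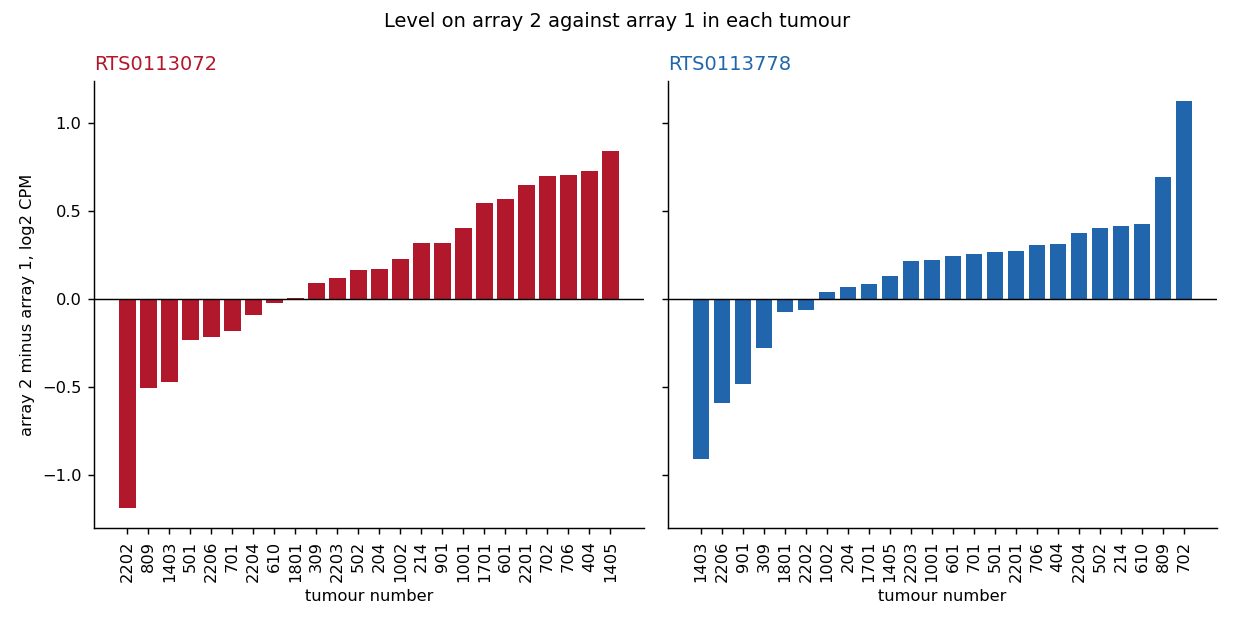
Level on array 2 minus level on array 1 in log2 CPM (vertical), 1 bar for each of 24 tumours in order of the difference (horizontal), for RTS0113072 and RTS0113778. Bars are above 0 in 16 tumours for RTS0113072 and in 18 for RTS0113778.

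Both probes were set against RTS0112268, the probe that leads most regions and whose share ran from 1.91% to 42.03% over the tumours with a median of 12.4%. Shares of 1 total are tied to each other, since a larger RTS0112268 share leaves fewer counts for the rest, and the choice of regions not led by RTS0112268 also favours a negative relation. The correlations are therefore descriptions over 24 tumours. For RTS0113778, Pearson r was -0.503 and Spearman rho -0.690. For RTS0113072, r was -0.439 and rho -0.452. Both were negative on each array, with r of -0.521 and -0.482 for RTS0113778 and -0.440 and -0.433 for RTS0113072. When the shares were taken of the counts left after removing RTS0112268, RTS0112269 and RTS0113569, r was -0.433 and -0.278. Without tumours 2202 and 404, the 2 farthest from the median RTS0112268 share, r was -0.480 for RTS0113778 and -0.384 for RTS0113072.

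High shares lay mostly among the tumours low in RTS0112268. In the 12 tumours with the lowest RTS0112268 share, of 1.91% to 12.2%, the median RTS0113778 share was 0.714% and 5 tumours reached 1%. In the 12 with the highest, of 12.6% to 42.03%, the median was 0.0455% and 0 tumours reached 1%, although tumour 1701 came to 0.990%. For RTS0113072 the medians were 0.827% and 0.272%, with 6 tumours at 1% in the first set and 1, tumour 2203, in the second. Tumour 610, with 37.9% of RTS0112268, came to 0.942% of RTS0113072. Its RTS0113072 level of 14.50 log2 CPM was near the highest, 14.91 in tumour 502. Of the counts left without the 3 dominant probes, tumour 610 held 2.92% of RTS0113072. A low RTS0112268 share did not always go with a high share of these probes. Tumour 706 had the lowest RTS0112268 share and 0.0351% of RTS0113072, and tumour 309 had 8.66% of RTS0112268 and 0.0171% of RTS0113778.

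**Figure D4:**
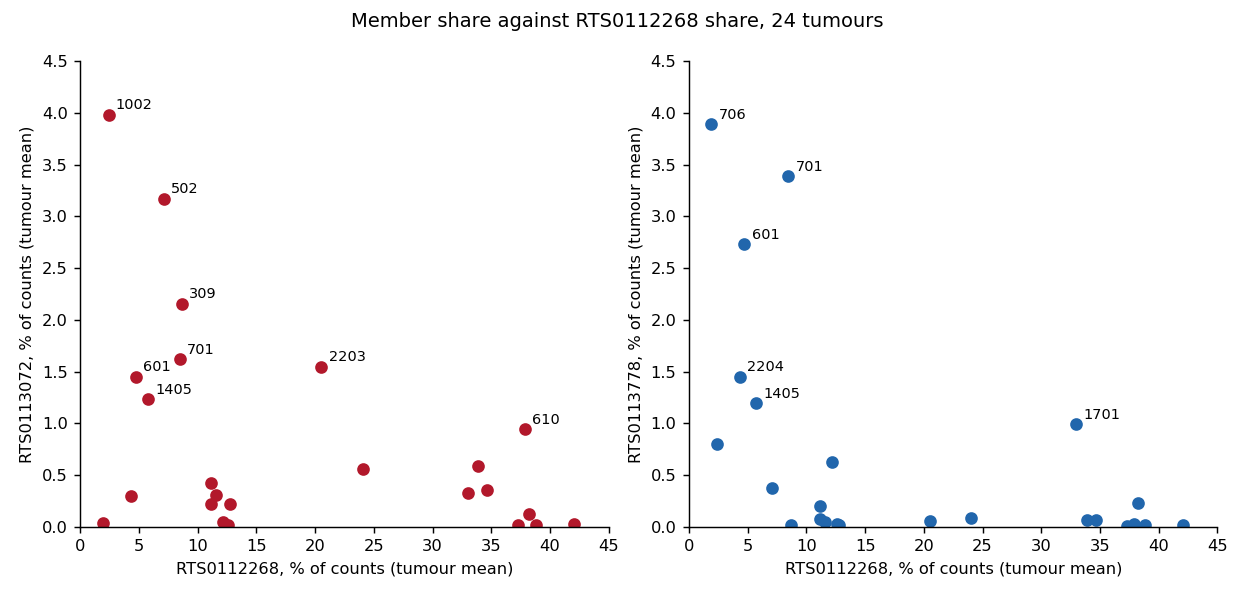
Mean share of RTS0113072 (left) and RTS0113778 (right) against the mean share of RTS0112268, all in percent of counts, 1 point for each of 24 tumours. Tumours at 0.9% or more are numbered, and those at 1% or more lie at an RTS0112268 share of 20.5% or less.

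Inside a tumour no such order was seen. In the 20 pairs of regions of 1 array, RTS0113072 had its higher share in the region with less RTS0112268 in 12 pairs, and RTS0113778 in 9 pairs. These pairs come from 10 tumours and are not independent. By tumour, RTS0113072 had this order on both arrays in 5, the opposite on both in 3 and a mixed order in 2. For RTS0113778 these numbers were 4, 5 and 1. The ratio of RTS0113072 to RTS0112268 counts ran from 0.00043 to 1.75 over the tumours with a median of 0.0219, and exceeded 1 in 4 regions. That of RTS0113778 ran from 0.000252 to 2.04 with a median of 0.00555, and exceeded 1 in 2 regions. In the control tissues, where all 3 probes held small shares, the median ratio was 0.330, 0.341 and 0.589 for RTS0113072 and 0.291, 0.508 and 0.494 for RTS0113778 in kidney, spleen and liver.

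The probes most like each of the pair were found by the Pearson correlation of TMM-scaled levels over 24 tumour means. The likest to RTS0113072 were RTS0112185 (r = 0.949), RTS0112195 (0.949), RTS0112379 (0.933), RTS0112130 (0.899) and RTS0113389 (0.893), and 8 probes reached 0.8. The likest to RTS0113778 were RTS0112309 (0.787), RTS0113655 (0.785), RTS0112093 (0.778), RTS0113172 (0.773) and RTS0113262 (0.762), and 0 probes reached 0.8. With library size alone these counts were 7 for RTS0113072 and 2 for RTS0113778, where RTS0113655 reached 0.832 and RTS0112309 0.825. Under TMM, upper quartile and library size scaling, more of the 2009 other probes passed that limit with RTS0113072 than with RTS0113778. At a limit of 0.5 this held under TMM (189 against 118) and upper quartile scaling (79 against 74). By library size alone the order turned, with 212 probes for RTS0113072 and 313 for RTS0113778. The companions of RTS0113072 were far less abundant, with median tumour shares of 0.0279% to 0.0520% against 0.338%. Of those of RTS0113778, RTS0113655 had a median share of 0.246% and a highest share of 1.78% in tumour 706, and the others were at 0.0113% to 0.0421%.

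The likeness of RTS0113072 to its companions was also present inside tumours. Over the 20 differences between 2 regions of an array, the correlation through the origin with RTS0112185 was 0.897, the highest of all 2009 probes, and with RTS0112195 it was 0.782, in place 3. RTS0112379 was in place 9 at 0.728, RTS0112130 in place 33 at 0.636 and RTS0113389 in place 98 at 0.502, against a median of -0.09 over all probes. For RTS0113778 it was not, since the same measure was between -0.40 and 0.00 for its 5 likest probes. The 20 differences come from 10 tumours, so pairs of 1 tumour are not independent, and no p is given.

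The least like RTS0113072 were RTS0113606 (r = -0.765) and RTS0113852 (-0.683). With library size alone these moved to -0.364 and -0.216. Over differences inside tumours the correlation was -0.07 for RTS0113606 and 0.32 for RTS0113852, the second of opposite sign. The least like RTS0113778 were RTS0112273 (-0.799) and RTS0113439 (-0.718). RTS0112273 is itself abundant, with a median tumour share of 0.905% and a highest of 9.12% in tumour 901, the tumour with the lowest RTS0113778 share. Its r with RTS0113778 was -0.791 on array 1, -0.802 on array 2 and -0.780 by library size alone, while over differences inside tumours the correlation was -0.13. For RTS0113439 the r by library size alone was -0.503, and over differences inside tumours its correlation was -0.35, in place 1851 of 2009. The negative values of RTS0112273 and RTS0113439 with RTS0113778 were thus smaller in size inside tumours than among tumours.

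**Figure D5:**
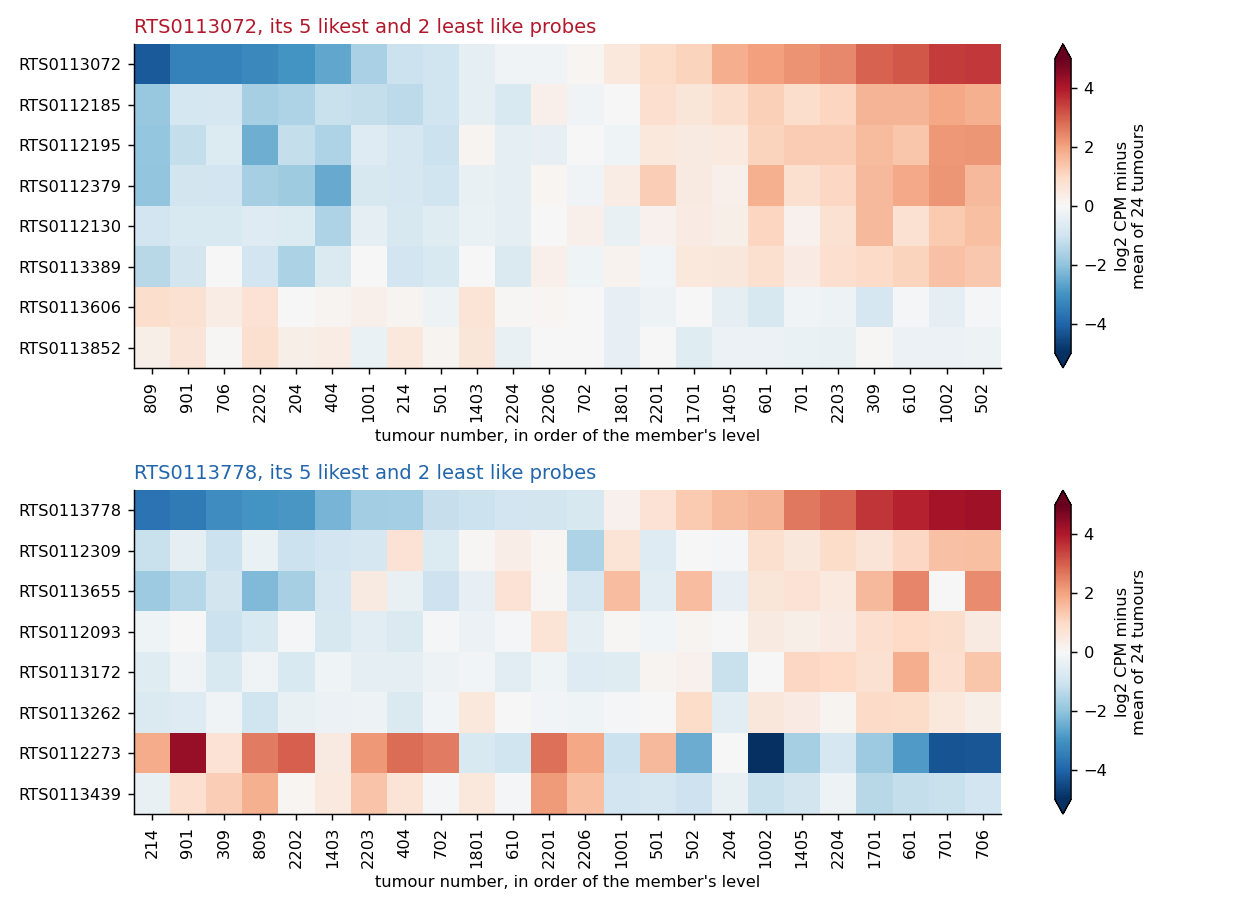
Level of each probe (rows) in log2 CPM minus its mean over 24 tumours (columns, in order of the level of the top probe), for RTS0113072 above and RTS0113778 below, each with its 5 likest and 2 least like probes. The colour scale ends at -5 and 5, and the rows of RTS0112185 and RTS0112195 follow RTS0113072 most closely while RTS0112273 runs opposite to RTS0113778.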

How the data were processed

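Per the file headers, the deposited counts per probe come from the GeoMx NGS pipeline, version 2.3.4, and no normalization is recorded. In 12 of the 81 libraries the header does not let the count column be told apart by name, so the authors' values there were recorded as another unit, although they are counts as well. Both probes, and the lists and tests, were chosen with earlier results of these data known. Named probes are both members, RTS0112268, RTS0112269 and RTS0113569, the 5 likest and 2 least like probes of each member, and the first or second probe of regions that a member led or nearly led.

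Counts were tested in edgeR 4.0.16 (R 4.3.3; quasi-likelihood, TMM, filterByExpr, Benjamini-Hochberg, threshold 0.05). For the arrays, counts were summed per tumour and array (48 sums), with the tumour number, printed in the labels of both arrays, as block. For the tissues, the 12 control regions entered with array as covariate. TMM-scaled log2 CPM used a prior count of 2. Variance parts are 1-way components on levels centred by array. Permutation tests drew 100000 resamples (scipy 1.17.1). The edgeR, variance and sign-flip steps were tested on simulated data. Chi-square tests found that all 92 pairs of regions of 1 specimen differed beyond counting noise (highest p = 0.000457), so no library was counted as a copy. Other regions of a tumour may still be technical repeats, and p-values then measure only the spread between these samples. Alternatives were DESeq2 1.42.0, other scalings, no filter, no block or covariate, each array alone, thinning and leaving out samples. Disease-free interval groups were not analysed here.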

Additional observations from a re-analysis of the deposited data

Results flagged for a closer look

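One region stood apart among the groups of 4 regions. RTS0113072 in the third spleen region, on array 2, was at 7.29 log2 CPM, while the other 3 spleen regions were at 6.79 to 6.84. The gap was 0.901 of the range of the 4 regions. The region held 0.0312% of RTS0113072 in a total of 118688 counts, the lowest total of the 4. In all, 26 groups of 4 regions were examined, and chance marks about 1 in 20 such groups.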

How the results depend on the processing

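The lowest counts limit both probes in the control tissues and in the tumours where they are low, and the labels tie neither control regions to animals nor regions on the arrays to pieces of tissue. Apart from the replicates left out, 87 alternative values kept their direction and call or moved by less than the replicate spread, 13 moved further, 2 turned direction, 3 gained a call and 2 lost one.

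The tumour part of the variance fell to 42.7% and 41.7% for RTS0113072 and to 69.9% and 63.6% for RTS0113778 on array 1 and array 2 alone, which leave only the tumours with 2 regions. The correlation with the RTS0112268 share was -0.278 for RTS0113072 among the counts left without the 3 dominant probes, -0.264 with TMM-scaled levels, an alternative chosen after seeing the data, and -0.66 for RTS0113778 with log2 shares.

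The tumour block pairs the arrays by tumour number. Without the replicate block, RTS0113778 was at 0.26 (edgeR adjusted p = 0.997) and 1 probe was called in place of 176. Other counts of called probes were 91 with upper quartile scaling, 95 by library size alone and 51 in the tumours with 2 regions per array. By share, 46 probes passed, against 25 on log2 shares and 0 in the tumours with 2 regions (282 at an unadjusted permutation p under 0.05), and by rank correlation 20 against 98 for region differences.

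For RTS0113072 in spleen against kidney, the log2 fold change turned positive at 0.00057 with upper quartile scaling and 0.24 by library size alone. With upper quartile scaling, liver against kidney was 0.63 for RTS0113072 and 0.55 for RTS0113778, with 1429 probes called (1044 higher), and liver against spleen was 0.63 and -0.27, with 1189 called (859 higher). The main fits called 374 and 298 probes higher. By library size alone the split was 714 higher and 304 lower in spleen against kidney, 465 and 478 in liver against kidney, and 151 and 669 in liver against spleen. The cause of these changes was not tested beyond the shift of all probes.

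Leaving out 1 tumour, the array log2 fold change was 0.16 to 0.27 for RTS0113072 and 0.25 to 0.31 for RTS0113778, with 123 to 199 probes called, and the correlation of region differences was 0.841 to 0.949 and 0.951 to 0.971. Leaving out 1 control region, RTS0113072 was at -0.14 to 0.10 in spleen against kidney, turning positive without spleen region 2 (0.00857) or kidney region 3 (0.10), 0.20 to 0.45 in liver against kidney and 0.25 to 0.43 in liver against spleen. RTS0113778 was at 0.73 to 0.89, 0.19 to 0.35 and -0.60 to -0.52, with 804 to 908, 810 to 894 and 667 to 805 probes called.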
